A study of Mus musculus with 6 samples.

Results

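A set of 36 genes of neutrophil granules, the phagocyte oxidase and the neutrophil surface was examined in lesional mouse skin, chosen by name as rows of the deposited gene table. All 36 were among its 35434 gene rows. The table holds 6 RNA-seq libraries of lesions from psoriasis mice, 3 from mice that received control regulatory T cells (Ctrl-Treg) and 3 from mice that received lenvatinib-treated regulatory T cells (Lenv-Treg). Lenvatinib inhibits several receptor tyrosine kinases. All 6 samples share the disease and a transfer of cells, and skin without either is not analysed here. The sources used here do not give the strain, age, inducing agent, cell dose or day of sampling. Nothing in them ties a sample to an animal, so each p-value reflects the scatter among these samples, part or all of which may be technical.

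Neutrophils are short-lived phagocytes that are made in the bone marrow and collect in psoriatic skin, where they form small abscesses in the epidermis. They build their granules in order. Primary granules, which hold myeloperoxidase and serine proteases, are made at the promyelocyte stage, later granules are made at the following stages, and cells that leave the marrow have largely stopped making primary granule mRNA. On activation, a membrane flavocytochrome joins cytosolic subunits to form the NADPH oxidase, which makes superoxide.

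Values are FPKM, that is fragments scaled by the length of the gene and by the depth of the library. Assigned reads per library, recovered from the steps of the FPKM values, ranged from 38704536 to 40248462. A difference is the mean log2(FPKM + 1) of Lenv-Treg minus that of Ctrl-Treg, a scale that compresses changes at low levels, and a gene passed where limma's adjusted p lay under 0.05. Of the 36 genes, 30 reached 0.5 FPKM in 3 or more of the 6 libraries and were tested. The other 6 were Mpo, Elane, Ctsg, Mrgpra2a, Gpr84 and Cebpe.

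To show what the genes carry at their starts, 5 promoters from RefSeq are printed first, each from 250 bases before to 50 bases after the start, 5′ to 3′ on the gene's strand. Retnlg had the largest difference of the tested members. Ngp is a granule gene with matches to the C/EBP motif. Elane and Prtn3 are primary granule genes that lie side by side and differ in level. Mrgpra2a stands for a pair of copies with the same promoter. Capitals mark matches to any of 4 motifs that were searched on both strands.
Retnlg (GRCm38.p6, plus strand, chr16:48872358-48872657): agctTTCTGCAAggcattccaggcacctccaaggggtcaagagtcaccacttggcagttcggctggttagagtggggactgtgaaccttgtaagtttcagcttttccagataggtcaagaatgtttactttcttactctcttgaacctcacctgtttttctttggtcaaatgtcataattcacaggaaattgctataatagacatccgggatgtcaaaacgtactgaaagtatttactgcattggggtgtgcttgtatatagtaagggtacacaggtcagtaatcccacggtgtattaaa
Ngp (GRCm38.p6, plus strand, chr9:110419558-110419857): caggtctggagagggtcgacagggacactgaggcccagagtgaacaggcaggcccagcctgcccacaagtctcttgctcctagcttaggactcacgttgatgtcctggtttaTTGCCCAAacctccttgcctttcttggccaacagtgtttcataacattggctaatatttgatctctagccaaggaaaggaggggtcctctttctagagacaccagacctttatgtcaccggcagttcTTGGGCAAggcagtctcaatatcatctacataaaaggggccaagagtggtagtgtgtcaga
Elane (GRCm38.p6, plus strand, chr10:79886062-79886361): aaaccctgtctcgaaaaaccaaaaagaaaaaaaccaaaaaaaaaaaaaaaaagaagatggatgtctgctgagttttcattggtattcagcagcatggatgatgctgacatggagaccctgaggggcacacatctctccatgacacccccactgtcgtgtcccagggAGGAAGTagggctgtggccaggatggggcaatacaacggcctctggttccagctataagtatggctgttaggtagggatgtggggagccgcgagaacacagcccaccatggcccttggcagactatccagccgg
Prtn3 (GRCm38.p6, plus strand, chr10:79879417-79879716): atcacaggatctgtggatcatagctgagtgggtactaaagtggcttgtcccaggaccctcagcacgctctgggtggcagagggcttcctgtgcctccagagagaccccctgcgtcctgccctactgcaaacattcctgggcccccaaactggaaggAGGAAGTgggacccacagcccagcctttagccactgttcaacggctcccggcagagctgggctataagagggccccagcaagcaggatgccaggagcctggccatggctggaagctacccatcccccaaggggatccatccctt
Mrgpra2a (GRCm38.p6, minus strand, chr7:47452115-47452414): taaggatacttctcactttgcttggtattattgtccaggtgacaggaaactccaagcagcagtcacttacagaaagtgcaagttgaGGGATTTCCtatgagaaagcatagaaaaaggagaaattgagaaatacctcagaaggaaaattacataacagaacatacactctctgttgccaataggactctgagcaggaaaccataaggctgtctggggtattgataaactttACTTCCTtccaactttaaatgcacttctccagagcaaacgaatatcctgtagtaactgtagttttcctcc

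The 4 motifs were TTGCNNAA for C/EBP, AGGAAGT for PU.1, GGGNNTTCC for NF-kB and TATAAA for the TATA box, where N is any base. RefSeq (GRCm38.p6) gave a promoter for 28 of the 36 genes and none was given for Cebpd, Cebpe, Hcar2, Hp, Lilrb4a, Ncf4, Trem3 and Wfdc21. The 28 genes had 30 promoters, as Fcgr3 and Ly6g had overlapping ones that count separately. The PU.1 motif occurred in 16 of the 30 (15 genes), against 9.4% of all 32851 promoters in the table. The genes with it included Mpo, Elane, Prtn3 and Ctsg of the primary granule and Trem1, Acod1, Slfn1 and Slfn4. The C/EBP motif occurred in 5 of the 30 promoters (4 genes, Fcgr3, Ly6g, Ngp and Retnlg), against 10.8% of all promoters. The NF-kB motif occurred in 7 (6 genes, against 5.8%) and the TATA box in 10 (9 genes, against 13.6%). In the sequences above, Retnlg has a C/EBP match at position -246 and Ngp has 2, at -138 and -11, counted from the start. Prtn3 and Elane each have a PU.1 match, at -94 and -84. The promoter of Mrgpra2b was the same as that of Mrgpra2a in 300 of 300 bases, with a PU.1 match at -20 and an NF-kB match at -164. Both are counted in the PU.1 and NF-kB numbers, though their sequences do not differ. No match overlapped a match of another motif. A match is a description of the letters and not a site, and Slfn1 and Slfn4, which both have a PU.1 match, differed in their values as given below.

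Most of the tested genes were higher in the libraries labelled Lenv-Treg. Of the 30 tested, 23 were higher, 2 were lower and 5 did not pass, while over all 13945 genes tested 41.7% were called, 11.0% as higher and 30.8% as lower. A rise of at least 1 was called for 19 members and for 3.76% of all genes tested. The median difference was 1.48 over these 30 genes and -0.17 over all genes tested. Among the 30, 7 (Ngp, Ly6g, Cd177, Trem1, Trem3, Mrgpra2b and Acod1) reached the filter through Lenv-Treg libraries alone and so had to differ. The groups did not overlap for 22 members that were higher in Lenv-Treg and for 2 that were lower, against 14.4% and 41.0% of all genes tested, or 55.4% in either direction. Of the 23 members that the filter did not fix in this way, 16 were higher, 2 were lower and 5 did not pass, 12 rose by at least 1, and the groups did not overlap for 15 that were higher and 2 that were lower. The median difference of these 23 was 1.03. In bulk tissue, more cells of a type and more RNA per cell cannot be told apart.

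**Figure D1:**
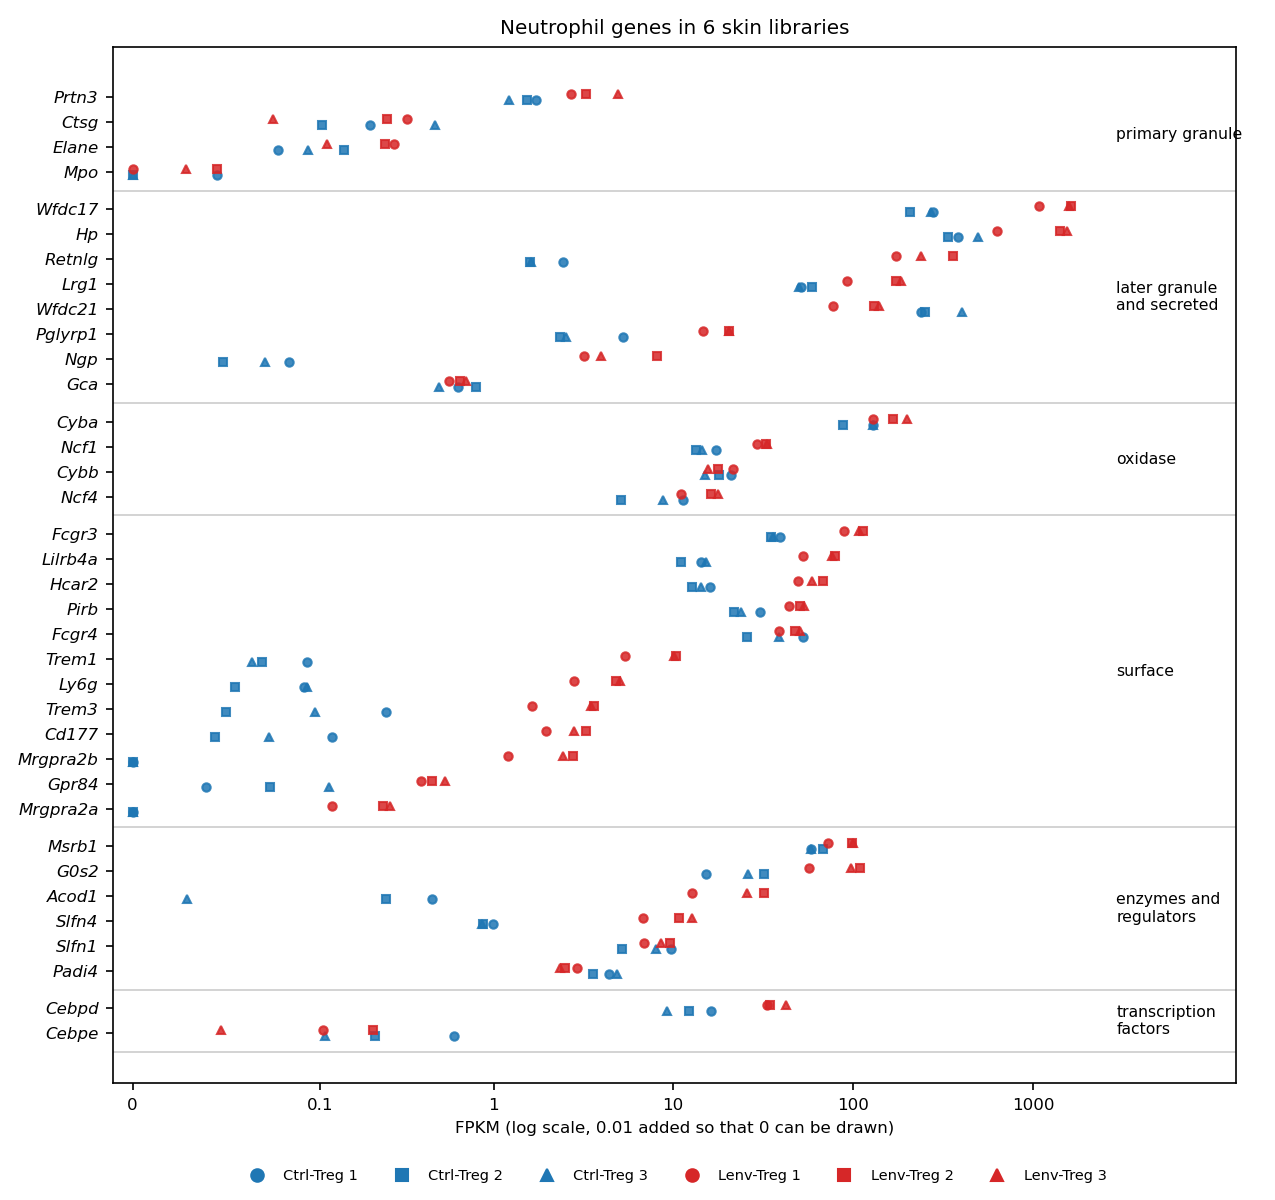
FPKM of the 36 genes in each library on a log scale, ordered by role and, within a role, by mean level in Lenv-Treg, with blue for Ctrl-Treg, red for Lenv-Treg and the marker shape for the replicate. Retnlg, Ngp, Trem1, Ly6g and Acod1 lie far apart between groups, while Gca, Cybb, Fcgr4 and Slfn1 overlap.

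The primary granule genes had few reads in both groups, with 1 exception. Mpo, which encodes myeloperoxidase, had 2, 0 and 0 reads in Ctrl-Treg and 0, 2 and 1 reads in Lenv-Treg. Elane, which encodes neutrophil elastase, had 2, 5 and 3 reads and 10, 9 and 4 reads (exact permutation p = 0.2). Ctsg, which encodes cathepsin G, had 8, 4 and 18 reads and 13, 10 and 2 reads (exact permutation p = 0.8). The groups overlapped for all of Mpo, Elane and Ctsg, and a difference was not detectable at this depth. A test of 3 samples against 3 cannot give an exact p below 0.1.

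Prtn3, which encodes proteinase 3 and is the neighbour of Elane, was the exception. It stood at 1.74, 1.55 and 1.22 FPKM in Ctrl-Treg and at 2.72, 3.27 and 4.98 FPKM in Lenv-Treg, and the groups did not overlap. It rose by 0.87 (SE 0.18, limma adjusted p = 0.00791), and its ratio of means, 2.44, was close to the 2.26 of Elane. Elane did not exceed 0.272 FPKM in any library, and Mpo did not exceed 0.0195 FPKM.

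Of the 8 genes of later granules and secreted proteins 6 rose, 1 fell and 1 did not pass, where 11.0% of all genes tested were higher and 30.8% lower. For Ngp, among the 6, the rise was fixed by the filter, and Retnlg rose by the widest margin. Retnlg, which encodes a resistin-like secreted protein of neutrophils, stood at 2.45, 1.60 and 1.61 FPKM in Ctrl-Treg and at 172, 359 and 237 FPKM in Lenv-Treg. Every Lenv-Treg library lay far above every Ctrl-Treg library, a 136-fold ratio of means (difference 6.43, SE 0.26, limma adjusted p = 1.65e-05). Ngp, a neutrophilic granule protein, was at 0.0642, 0.0220 and 0.0445 FPKM in Ctrl-Treg, from 6 reads in all, and at 3.21, 8.11 and 3.96 FPKM in Lenv-Treg. It rose 117-fold (difference 2.46, SE 0.26, limma adjusted p = 0.000448), and Lenv-Treg replicate 2 stood above the other two. Pglyrp1, a peptidoglycan recognition protein stored in granules, rose from 3.39 ± 1.62 to 18.6 ± 3.41 FPKM (SD, n = 3), a difference of 2.20.

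The levels of these genes before any rise differed widely. Hp, which encodes haptoglobin, was the highest of the 36 in Ctrl-Treg, at 385, 335 and 497 FPKM, and it was at 633, 1411 and 1538 FPKM in Lenv-Treg. Its difference of 1.47 (SE 0.35, limma adjusted p = 0.0131) no longer passed without Lenv-Treg replicate 2 (1.30, adjusted p = 0.0517). Wfdc17, a small protein with a whey acidic protein domain, became the highest of the set in Lenv-Treg, rising from 252.1 ± 38.9 to 1425 ± 298 FPKM (difference 2.48). Lrg1, a leucine-rich glycoprotein that neutrophils store and many other cells make, rose from 53.5 ± 4.78 to 150.6 ± 50.7 FPKM (1.42). In the same Ctrl-Treg libraries Ly6g was at most 0.0828 FPKM, and the neutrophil receptor gene Csf3r averaged 2.95 FPKM.

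Wfdc21 and Gca did not rise. Wfdc21, another whey acidic protein, was at 238, 252 and 405 FPKM in Ctrl-Treg and at 77.3, 130 and 138 FPKM in Lenv-Treg. All 3 Lenv-Treg libraries lay below all Ctrl-Treg libraries, and it fell by 1.36 (SE 0.28, limma adjusted p = 0.00758). Wfdc21 averaged 298.1 FPKM in Ctrl-Treg, where Ly6g averaged 0.0632 FPKM and Csf3r 2.95 FPKM. The cells that carried Wfdc21 were not tested. Gca, which encodes the calcium-binding protein grancalcin, was at 0.641 ± 0.153 and 0.637 ± 0.0688 FPKM, a difference of 0.00 with a 95% interval from -0.23 to 0.23, whose sign was negative after rescaling to TPM and without any 1 of 4 libraries.

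**Figure D2:**
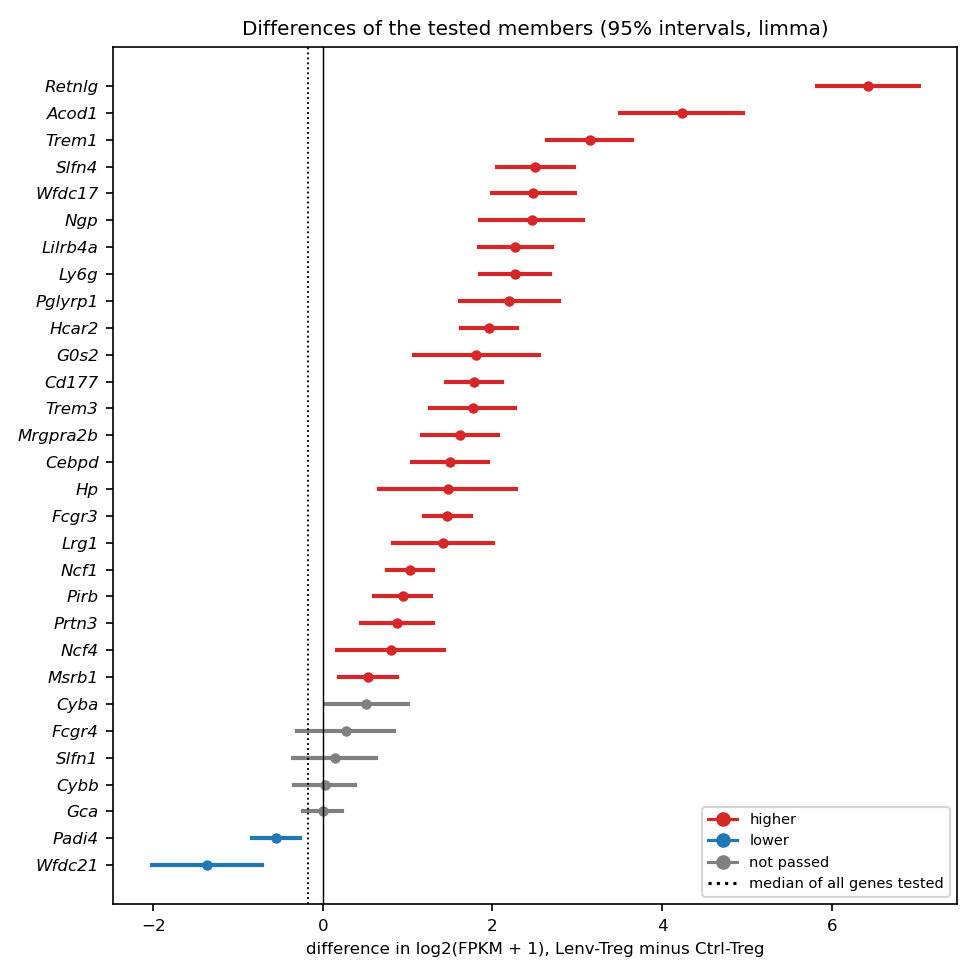
Difference in log2(FPKM + 1), Lenv-Treg minus Ctrl-Treg, of the 30 tested genes with its 95% interval from limma, red for higher, blue for lower and grey for not passed, and a dotted line at the median of all genes tested (-0.17). Retnlg (6.43), Acod1 (4.23) and Trem1 (3.15) lead, and Padi4 (-0.55) and Wfdc21 (-1.36) lie below 0.

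Of the 4 subunits of the NADPH oxidase in the set, 2 rose and 2 did not pass, where 11.0% of all genes tested were higher. Cybb, the catalytic gp91phox subunit in the membrane, was at 21.1, 18.0 and 15 FPKM in Ctrl-Treg and at 21.4, 17.8 and 15.7 FPKM in Lenv-Treg. The libraries of both groups span the same range, and the difference was 0.02 (95% interval -0.34 to 0.38), turning negative after rescaling to TPM and without Ctrl-Treg replicate 3 or Lenv-Treg replicate 1. Cyba, its p22phox partner, was at 129, 87.6 and 129 FPKM and at 129, 166 and 200 FPKM. It did not pass (0.51, SE 0.21, limma adjusted p = 0.0861), and it passed after scaling to medians of ratios (0.75, adjusted p = 0.0400) and without Lenv-Treg replicate 1 (0.68, adjusted p = 0.0442).

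Among the cytosolic subunits, Ncf1 (p47phox), the organizer of the complex, rose from 17.4, 13.5 and 14.5 FPKM to 29.4, 33.0 and 33.1 FPKM. The groups did not overlap, and the difference was 1.03 (SE 0.12, limma adjusted p = 0.000565). Ncf4 (p40phox) was at 11.3, 5.15 and 8.85 FPKM and at 11.1, 16.2 and 17.8 FPKM, and the groups overlapped. Its difference of 0.80 (SE 0.27, limma adjusted p = 0.0475) lost its call without any 1 of 4 libraries (Ctrl-Treg replicate 2 or 3, Lenv-Treg replicate 2 or 3, adjusted p 0.0737 to 0.140). On the TPM scale it did not pass either (0.56, adjusted p = 0.0932).

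Of 12 oxidase-related genes outside the set, 9 were tested, 3 were higher and 6 did not pass, where 11.0% of all genes tested were higher. The small GTPase genes Rac1 (0.26, adjusted p = 0.109), Rac2 (-0.39, adjusted p = 0.164) and Rap1a (0.12, adjusted p = 0.273) did not pass in limma, and their standing moved with the scaling. After scaling to medians of ratios Rac1 (0.49, adjusted p = 0.0207) and Rap1a (0.35, adjusted p = 0.0143) were called higher, while after rescaling to TPM both turned negative and Rac2 was called lower (-0.67, adjusted p = 0.0219). Rac2 was also called lower without Ctrl-Treg replicate 2 (-0.61, adjusted p = 0.0169). Duox1, an epithelial member of the oxidase family, rose from 0.532 ± 0.0679 to 2.80 ± 0.479 FPKM (1.30).

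**Figure D3:**
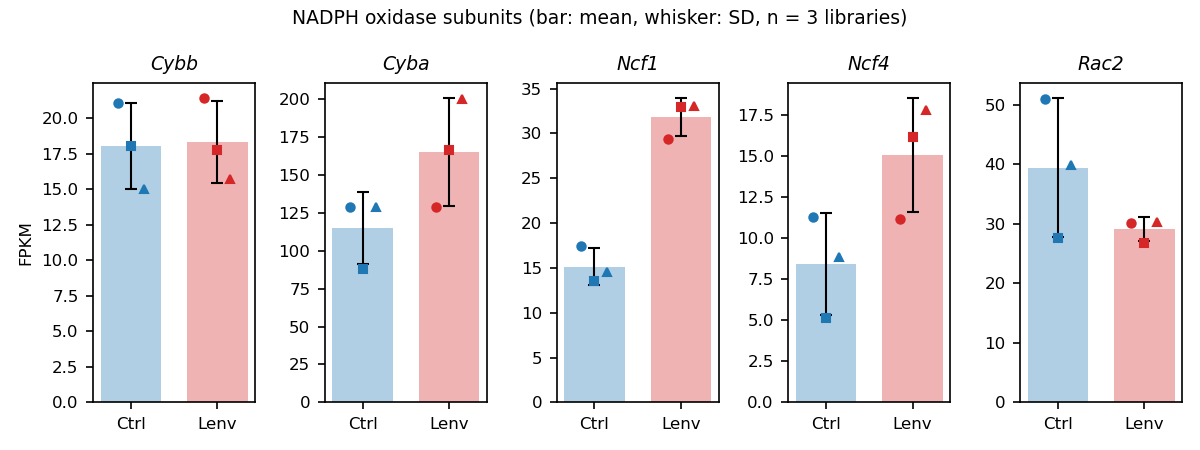
FPKM of 5 subunits of the phagocyte oxidase, each with its own axis from 0, bars for the mean of 3 libraries, whiskers for the SD and points for single libraries. The libraries of Ncf1 are apart between groups, and Cybb is level at 18.0 and 18.3 FPKM.

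Of the 12 surface genes 10 were tested, of which 9 rose and 1 did not pass. For 5 of the 9 the rise was fixed by the filter, and of the other 5 tested 4 rose, where 11.0% of all genes tested did. Several of them were close to 0 in Ctrl-Treg and were detected in every Lenv-Treg library. Ly6g, which encodes the antigen used to define mouse neutrophils, had 3, 1 and 3 reads in Ctrl-Treg and 105, 181 and 187 reads in Lenv-Treg, or 0.0632 ± 0.0312 and 4.22 ± 1.23 FPKM. It rose by 2.27 (SE 0.18, limma adjusted p = 0.000139). Trem1, a receptor of neutrophils and monocytes that amplifies inflammatory signals, rose from 0.0827, 0.0425 and 0.0358 FPKM to 5.40, 10.4 and 10.1 FPKM, a difference of 3.15 (SE 0.22, limma adjusted p = 8.94e-05). The ratio of means was 161 for Trem1 and 66.7 for Ly6g.

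Cd177 and Trem3 rose in the same way from few reads. Cd177, a glycoprotein of the neutrophil surface, had 13, 2 and 5 reads in the Ctrl-Treg libraries and 215, 362 and 307 in those of Lenv-Treg (difference 1.78). Its 44.0-fold ratio was 81.8 without Ctrl-Treg replicate 1. Trem3, a relative of Trem1, had 11, 1 and 4 reads and 73, 162 and 154 reads (difference 1.77), a 24.2-fold ratio that was 50.4 without Ctrl-Treg replicate 1.

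The receptors Mrgpra2a and Mrgpra2b, G protein-coupled receptors through which neutrophils sense antimicrobial peptides, had 0 reads in all 3 Ctrl-Treg libraries. A level of 3 reads over that group, the limit that a count of 0 allows, would be 0.0201 FPKM for Mrgpra2b. In Lenv-Treg, Mrgpra2b had 61, 142 and 123 reads (1.62, SE 0.19, limma adjusted p = 0.00074) and Mrgpra2a had 6, 12 and 13 (exact permutation p = 0.1). Of the 100-base windows of the Mrgpra2a transcript, 73.4% also occur in Mrgpra2b, so the split of reads between them is uncertain. Their sum was 0 in each Ctrl-Treg library and 67, 154 and 136 reads in Lenv-Treg. Gpr84, a receptor for medium-chain fatty acids, lay outside the filter at 1, 3 and 7 reads and 25, 29 and 34 reads, without overlap (exact permutation p = 0.1). With no filter on low values, where 21.7% of 25667 genes were called, it passed in limma (0.46, adjusted p = 0.00368), as did Mrgpra2a (0.27, adjusted p = 0.0125).

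Receptors that macrophages and other cells also carry were already well expressed in Ctrl-Treg. Hcar2, the receptor for niacin and hydroxybutyrate, rose from 14.4 ± 1.71 to 58.9 ± 9.23 FPKM (1.96). Fcgr3, an activating receptor for IgG, rose from 39.1, 34.8 and 35.9 FPKM to 88.9, 114 and 108 FPKM (1.47, SE 0.12, limma adjusted p = 0.000165). Fcgr4, another activating IgG receptor, was at 52.8, 25.7 and 39.0 FPKM and at 39.0, 47.5 and 50.7 FPKM. Its groups overlapped, and the difference of 0.27 (95% interval -0.30 to 0.84) turned negative after rescaling to TPM.

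Both inhibitory receptors in the set rose. Lilrb4a went from 13.5 ± 2.20 to 69.5 ± 14.8 FPKM (2.27, SE 0.19) and Pirb from 25.4 ± 4.55 to 49.5 ± 5.05 FPKM (0.94, SE 0.14). Each is uncertain as a single gene, since 100% of the 100-base windows of Lilrb4a and 24.6% of those of Pirb occur in another gene model. The partner list of Fc and paired receptors had 11 tested genes, of which 7 were higher and 4 did not pass, where 11.0% of all genes tested were higher. Treml4, among the 7, reached the filter through Lenv-Treg libraries alone, so its rise was fixed by the filter. The signalling adapters Fcer1g (0.63) and Tyrobp (1.05), the inhibitory IgG receptor Fcgr2b (1.77), Lilrb4b (2.10) and Trem2 (1.84), a receptor of macrophages, rose. The call of Fcer1g was lost on the TPM scale (0.34, adjusted p = 0.123), with quantiles equalized (0.37, adjusted p = 0.170) and without any 1 of 4 libraries (replicate 2 or 3 of either group, adjusted p 0.0665 to 0.116).

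Of the 6 intracellular enzymes and regulators 4 rose, 1 fell and 1 did not pass, where 11.0% of all genes tested were higher and 30.8% lower. Acod1 had the largest difference of these, though its rise was fixed by the filter. It encodes the enzyme that makes itaconate in activated myeloid cells, and it was at 0.451, 0.247 and 0.00998 FPKM in Ctrl-Treg and at 12.7, 31.9 and 25.7 FPKM in Lenv-Treg (4.23, SE 0.31, limma adjusted p = 0.000117). The 99.5-fold ratio of means was 183 without Ctrl-Treg replicate 1. G0s2, an inhibitor of fat breakdown, rose from 24.4 ± 8.45 to 87.6 ± 27.4 FPKM (1.81). Msrb1, a selenoprotein that repairs oxidized methionine, rose from 61.7 ± 5.43 to 90.5 ± 15.4 FPKM (0.53, limma adjusted p = 0.0235). That call was lost without any 1 of 4 libraries (Ctrl-Treg replicate 1 or 3, Lenv-Treg replicate 2 or 3, with 0.0854 as the highest adjusted p), and on the TPM scale (0.25, adjusted p = 0.132).

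The Schlafen genes differed from each other. Slfn4, a Schlafen gene of myeloid cells, was at 0.989, 0.869 and 0.860 FPKM in Ctrl-Treg and at 6.84, 10.8 and 12.7 FPKM in Lenv-Treg (2.51, SE 0.20, limma adjusted p = 0.00014). Slfn1 was at 9.73, 5.19 and 8.0 FPKM and at 6.91, 9.57 and 8.60 FPKM, with overlapping groups. Its difference of 0.14 (95% interval -0.35 to 0.63) turned negative after rescaling to TPM and without Ctrl-Treg replicate 2.

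Padi4 fell. It encodes the peptidylarginine deiminase that citrullinates histones during the release of neutrophil extracellular traps. It was at 4.39, 3.59 and 4.85 FPKM in Ctrl-Treg and at 2.92, 2.50 and 2.36 FPKM in Lenv-Treg, without overlap (-0.55, SE 0.12, limma adjusted p = 0.00991). After quantile normalization it no longer passed (-0.30, adjusted p = 0.104). Padi4 had 1333 reads over the Ctrl-Treg libraries, where the neutrophil genes Ly6g, Retnlg, Cxcr2 and Csf3r had 7, 136, 559 and 1619. The cells that carried Padi4 were not tested, so its fall cannot be assigned to neutrophils or to other cells. Padi3, a relative of Padi4 and a deiminase of the hair follicle, fell by 4.43.

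Of the 2 transcription factor genes only Cebpd was tested. Cebpd, a C/EBP factor induced in inflammation, rose from 16.2, 12.3 and 9.29 FPKM to 33.1, 34.5 and 42.6 FPKM (1.50, SE 0.19, limma adjusted p = 0.001). Cebpe, the C/EBP factor that drives the formation of later granules in the marrow, had 29, 10 and 5 reads in the Ctrl-Treg libraries and 5, 10 and 1 in the others. Its groups overlapped (exact permutation p = 0.2). Of 7 tested granulocyte factors and progenitor genes outside the set, 2 were higher (Cebpb by 0.95 and Klf5 by 0.70), Myb was lower (-1.41) and 4 did not pass. Over all genes tested, 11.0% were higher and 30.8% lower. Klf5 did not pass on the TPM scale (0.43, adjusted p = 0.122) or without Ctrl-Treg replicate 3, Lenv-Treg replicate 1 or Lenv-Treg replicate 2 (adjusted p 0.0538 to 0.0682). The 4 that did not pass included Cebpa (-0.14), which was called lower on the TPM scale (-0.42, adjusted p = 0.0216) and was positive after scaling to medians of ratios. Another of the 4 was Spi1, which encodes PU.1 (0.59, limma adjusted p = 0.0799) and was called higher after scaling to medians of ratios (0.82, adjusted p = 0.0409) and without Ctrl-Treg replicate 1 (0.83, adjusted p = 0.0165).

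Set out by stage of granule formation, early genes other than Prtn3 had few reads in both groups. Ms4a3, a marker of granulocyte and monocyte progenitors, had 2 reads summed over each group, Fcnb, a ficolin of immature neutrophils, had 0 and 1, and Bpi, a bactericidal primary granule protein, had 2 and 1. The later granule genes Ltf (13 and 70 reads over the groups) and Mmp8 (77 and 3904 reads, difference 3.48) were higher in each Lenv-Treg library than in any Ctrl-Treg library. Mmp8 reached the filter through Lenv-Treg libraries alone. Camp, which encodes cathelicidin, did not pass (0.93, limma adjusted p = 0.181), and its 2.22-fold ratio of means was 4.87 without Ctrl-Treg replicate 2, the highest of its group at 4.01 FPKM. Csf3r and Cxcr2, receptors of mature neutrophils, rose by 2.40 and 2.96. The genes set out by stage were chosen after their values were seen.

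**Figure D4:**
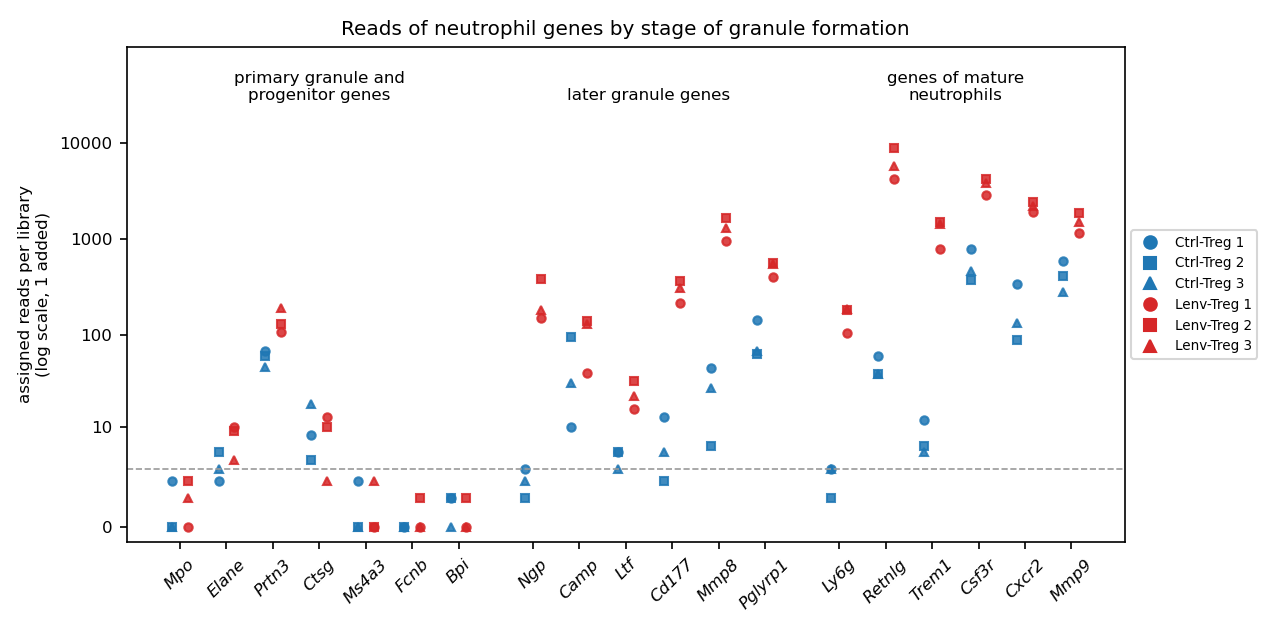
Assigned reads per library of 19 genes on a log scale with 1 added, grouped by the stage at which neutrophils make them, with blue for Ctrl-Treg, red for Lenv-Treg, and a dashed line at 3 reads. Mpo, Ms4a3, Fcnb and Bpi have at most 2 reads in any library, and Retnlg reaches 8784.

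Most other tested granule and surface genes of neutrophils moved with the set. Of 17 tested granule genes outside it, 12 were higher, 1 was lower and 4 did not pass, where 11.0% of all genes tested were higher. Among the higher were the calprotectin genes S100a8 (9.09) and S100a9 (8.92), Chil3 (5.70), a chitinase-like protein, and Lyz2 (0.75), a lysozyme. S100a8 averaged 21890.5 FPKM and S100a9 24392 FPKM in Lenv-Treg, where Ly6g averaged 4.22 FPKM and Retnlg 256 FPKM. Activated keratinocyte markers rose in the same libraries, and the part of keratinocytes in both S100 genes was not tested. Lyz2 is abundant in macrophages too, and its call was lost when either replicate 2 or replicate 3 of Lenv-Treg was left out (adjusted p 0.0526 and 0.0580). Of 21 tested surface and signalling genes, 17 were higher and 4 did not pass. Mmp8, among the 12 higher granule genes, and Clec4e, among these 17, reached the filter through Lenv-Treg libraries alone. Their rise was fixed by the filter. Clec4d (5.20) and Clec4e (4.02), C-type lectins that sense microbial and cell debris, Ifitm6 (2.52), Alox5ap (1.16), which is needed for leukotriene synthesis, and Itgam (0.91), the integrin chain CD11b, rose, the last losing its call on the TPM scale (0.64, adjusted p = 0.0529) and without Lenv-Treg replicate 2 (0.82, adjusted p = 0.0566).

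Relatives by family did not move as a block. Of 24 tested relatives, 6 were higher, 12 were lower and 6 did not pass, where 11.0% of all genes tested were higher and 30.8% lower. The resistin-like gene Retnla fell by 2.15 in the libraries where Retnlg rose, and Slpi, a secreted inhibitor of elastase with whey acidic protein domains, rose by 5.41. Ly6a fell by 0.45, a call lost after scaling to medians of ratios (-0.22, adjusted p = 0.3) and without any 1 of 5 libraries (each but Ctrl-Treg replicate 2). Ly6e did not pass (-0.29, limma adjusted p = 0.128) and was called lower on the TPM scale (-0.58, adjusted p = 0.00886), as it was with quantiles equalized (-0.51, adjusted p = 0.0328).

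**Figure D5:**
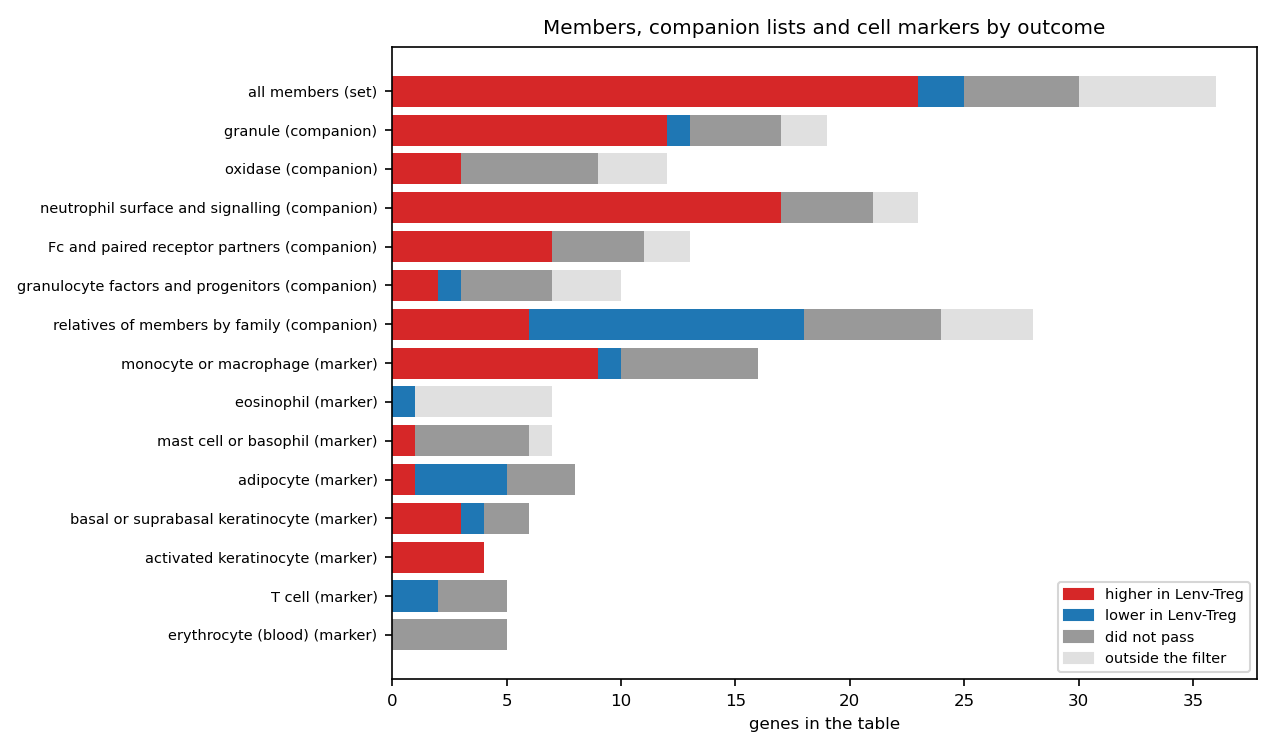
Number of genes per list that were higher, lower, not passed or outside the filter, for the 36 genes, 6 companion lists and 8 lists of cell markers. The set has 23 higher and 2 lower of 30 tested, and the list of relatives has more genes lower (12) than higher (6).

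Markers of other cells were read beside these results and beside all genes tested, of which 11.0% were higher and 30.8% lower. Of 16 monocyte or macrophage markers 9 were higher and 1 was lower, and their differences ran from -0.84 to 3.05. A rise of at least 1 was called for 6 of them. Their summed level was 1531 to 2041 FPKM in Ctrl-Treg and 2352 to 2471 FPKM in Lenv-Treg. C1qa (0.26) and C1qb (0.30) did not pass, although C1qb was called higher after scaling to medians of ratios (0.54, adjusted p = 0.0397). All 4 activated keratinocyte markers, Krt6a (5.11) and Krt16 (5.92) among them, were higher, with sums of 72.3 to 323 and 6152 to 8740 FPKM. Of 6 basal or suprabasal markers 3 were higher and 1 lower (sums of 2621 to 4267 and 7173 to 8914 FPKM), Krt14 rising by 2.54 and Krt1 not passing (0.01, negative after rescaling to TPM). The part of these cells in the levels of Fcgr3, Pirb, Lilrb4a, Acod1, Cyba and Cybb, which macrophages also express, was not tested. Genes of neutrophils differed in level in Ctrl-Treg. Cd177 (0.0611 FPKM) and Ly6g (0.0632) were low, while Cxcr2 (1.50), Retnlg (1.89) and Csf3r (2.95) were higher. A comparison with Ly6g thus rests on a single gene of low level. Other members also stood well above Ly6g in Ctrl-Treg. Among them were Wfdc17 (252.1 FPKM), Msrb1 (61.7), Fcgr4 (39.1), Ncf1 (15.1), Cebpd (12.6) and Ncf4 (8.44). The cells that carried them were not tested.

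Adipocyte markers went lower for 4 of 8 and higher for 1, with sums of 2324 to 3216 and 1631 to 2312 FPKM. Of all genes tested, 30.8% were lower and 11.0% higher. Cfd fell by 0.84, a call lost after scaling to medians of ratios (-0.61, adjusted p = 0.0912) and without Ctrl-Treg replicate 1 or 2 or Lenv-Treg replicate 1 or 2 (adjusted p 0.0519 to 0.0734), and Fabp4 did not pass (0.24). Adipocytes also express Hp, G0s2 and Hcar2, which rose in the same libraries, and their part was not tested. Of 6 tested mast cell or basophil markers 1 was higher (sums of 193.7 to 276.0 and 250.6 to 394.0 FPKM), with Mcpt4 (0.24) and Cma1 (0.28) not passing. Of 5 tested T cell markers 2 were lower (sums of 14.2 to 20.2 and 9.54 to 15.5 FPKM), where 30.8% of all genes tested were lower. Cd2 differed by -0.65, a call lost after quantile normalization (-0.37, adjusted p = 0.121). Cd3g did not pass (-0.50) and was called lower on the TPM scale (-0.80, adjusted p = 0.00807) and without Ctrl-Treg replicate 2 or Lenv-Treg replicate 3.

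Of 7 eosinophil markers the only tested one, Ear2, fell by 1.07, Ccr3 was at 0.465 ± 0.411 and 0.485 ± 0.350 FPKM, and sums were 14.3 to 23.9 and 7.95 to 10.3 FPKM. The ratio of means of Ccr3, 1.04, was 2.12 without Ctrl-Treg replicate 1, and leaving out Lenv-Treg replicate 1 made it 0.623. That of Siglecf, another eosinophil marker, which was chosen after its values were seen, was 1.11 and became 3.76 without Ctrl-Treg replicate 1. Epx, which encodes eosinophil peroxidase, had 0, 1 and 0 reads in the Ctrl-Treg libraries and 1, 0 and 0 in the others. The 5 blood markers had differences of 0.26 to 0.38, Hbb-bs (0.36) and Hba-a1 (0.38) among them, and 0 passed in limma and in voom and 1 had an unadjusted p under 0.05, with sums of 435.4 to 494.4 and 428.3 to 796.2 FPKM. Without Lenv-Treg replicate 1, Hbb-bs (0.56, limma adjusted p = 0.0393) and Hba-a1 (0.64, adjusted p = 0.0325) were called higher. The part of blood in the results was not tested.

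Lenv-Treg replicate 1 was the lowest of its group for all 23 members that were higher, compared with 49.6% of all 1532 genes that were higher. In Ctrl-Treg, replicate 1 was the highest for 17 of these 23 members, compared with 55.8%. Without Lenv-Treg replicate 1 the count of members was 24 higher and 2 lower, and their median difference was 1.79. Over all 13945 genes tested, 1385 were then higher and 3900 lower. Rescaling to TPM moved the median of all tested genes by -0.27, scaling to medians of ratios by 0.19 and quantile normalization by 0.16. The median of the members lay 1.66 above that of all genes as deposited, 1.67 above it after rescaling to TPM, 1.69 after scaling to medians of ratios and 1.50 after quantile normalization. These medians include the 7 members whose rise was fixed by the filter. The other 23 tested members had a median of 1.03 as deposited, and their median under the other scalings was not computed. Over the whole table, the split of 1532 higher and 4289 lower became 947 and 7970 after rescaling to TPM and 2548 and 2275 after scaling to medians of ratios. After quantile normalization it was 2232 and 2304.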

How the data were processed

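Total RNA of 6 skin samples was extracted with TRIzol and made into libraries with a VAHTS Universal V10 kit, per the labels' protocols. The authors deposited 1 table of FPKM values per gene symbol, with 1 column per sample, and the submitters' processing notes name GRCm39 as the genome build. For the aligner, counter, annotation, strandedness and filters the entry is not given in the sources used here, so overlapping and antisense genes cannot be told apart.

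Low FPKM values of a gene are whole multiples of 1 step, and the step times gene length gives the depth. Whole reads in all 6 samples came out for each of the 13945 genes tested (tolerance 0.005 reads plus 1e-08 per read), and recovered reads came to 99.69% to 99.72% of the depth. The reads of a gene are the smallest whole numbers that fit, with an exception. A multiple was used where it brought the length within a fraction of 0.1 of the GENCODE length. This was done only where the chance of a factor shared by all reads was at least 0.02. The reads could still be a multiple of those given. Floors of 3 reads cover counting error only.

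limma 3.58.1 in R 4.3.3 was fitted to log2(FPKM + 1) of genes at 0.5 FPKM or more in at least 3 samples (lmFit, then eBayes with trend, two-sided, Benjamini-Hochberg over all genes tested). Exact permutation tests are two-sided. A ± gives the SD (n = 3), and a fold is the ratio of the group means in FPKM. The fit and the recovery of reads were run on simulated data in which the depths and gene lengths were given. The estimation of depth and the effect of a wrong gene length were not tested.

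The 36 genes and all lists were chosen with earlier results of these data known. All 36 are named. Each of the 6 companion lists is named by its 3 most abundant genes by mean FPKM plus 2 further ones that have the smallest p, and each of the 8 marker lists by its 2 most abundant genes. The result of 1 gene under this rule is not reported here. Ms4a3, Fcnb, Bpi, Ltf, Camp, Csf3r, Cxcr2 and Treml4 were named after their values were seen. Promoters are RefSeq sequences of GRCm38.p6, another build than that of the values, matched by symbol. Transcript windows of 100 bases came from GENCODE. Alternatives covered the pseudocount, filter, scaling, variance model, replicate block, voom on recovered reads and leaving out each library.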

Additional observations from a re-analysis of the deposited data

How the results depend on the processing

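Under 17 alternatives, 21 of the 25 called members kept their direction and their call in each, 20 of them higher and 1 lower. The share of all called genes that did so was not counted, so the 21 are not read as particular to the members. Among these 20 are the 7 that reached the filter through Lenv-Treg libraries alone. Their rise was fixed by the filter, so their stability is no support. The exceptions were Hp, Msrb1, Ncf4 and Padi4. Members called higher numbered 20 to 24 and members called lower 2 when 1 library was left out, and after quantile normalization 1 member was called lower. The median difference of the members was 1.41 to 1.79 when 1 library was left out, with the 1.79 reached without Lenv-Treg replicate 1. These medians also include the 7 members fixed by the filter.

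Genes called over the whole table were 1152 to 1447 higher and 2780 to 3900 lower when 1 library was left out. After rescaling to TPM they were 947 and 7970, after scaling to medians of ratios 2548 and 2275, and after quantile normalization 2232 and 2304. Genes of the companion lists called lower numbered 24 after rescaling to TPM and 9 after scaling to medians of ratios, against 14, and 10 to 16 when 1 library was left out, with 37 to 51 higher.

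Differences that changed sign were all of genes that did not pass. After rescaling to TPM they were -0.16 for Gca, -0.26 for Cybb, -0.013 for Fcgr4, -0.12 for Slfn1, -0.033 for C1qa, -0.0074 for Cma1, -0.047 for Fabp4, -0.28 for Krt1, -0.042 for Mcpt4, -0.029 for Rac1 and -0.16 for Rap1a. After scaling to medians of ratios Cebpa was at 0.10, and after quantile normalization Krt1 was at -0.34. When 1 library was left out, Gca ranged from -0.065 to 0.069, Cybb from -0.095 to 0.14, Slfn1 from -0.080 to 0.32 and Krt1 from -0.42 to 0.26. The cause of these shifts was not tested.

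With the replicate number in the sample titles as a replicate block, members called were 22 higher and 2 lower. Over all 13945 genes tested, 1637 were higher and 4270 lower under that setting. There Ncf4 lost its call (0.80, limma adjusted p = 0.0662), while the T cell marker Cd3g was called lower (limma adjusted p = 0.0258). Samples with the same number did not all deviate together, with correlations of 0.196, -0.0109 and 0.328, so the numbers are not taken to pair the samples. Depth limits Mpo, Elane, Ctsg and Cebpe, whose reads were few in both groups.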
